A study of Apis mellifera with 36 samples.

Results

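The genes described here are 231 honey bee genes whose messenger RNA was lower in the brains of guard bees than in those of both nurses and unresponsive bees of a single colony, colony 6. Levels were taken as log2(CPM + 1), where CPM is a gene's count per 1000000 counts over all genes of the library. A gene was chosen when its mean over the 6 colony 6 guards lay at least 0.3 below the mean of the 6 nurses and at least 0.3 below the mean of the 6 unresponsive bees, with a mean of at least 1 CPM over the 18 bees. Of 15314 gene IDs, 10286 reached that level in colony 6, and the 231 members are 2.25% of them. An opposite choice, guards higher than both types by the same amount, would take 163 genes, or 1.58%. The choice would take 351 genes without Guard 205 and 134 without the 3 libraries numbered 213. A set of 15 IDs was left out of it by name. None of these 15 would have met the choice, and 5 would have met the opposite one. The members were thus selected on the levels of the 18 colony 6 bees, and the differences between guards and the other types of that colony are a description, without a test.

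RNA was sequenced from brain tissue of 36 worker honey bees (Apis mellifera), which the labels name mushroom bodies. All bees were 7 days old and had lived since emergence in laboratory dishes that held groups of 10 workers. Guards were bees that attacked an introduced foreign bee in both of its tests, with biting and stinging. Nurses tended an offered queen larva in both of its tests. Unresponsive bees showed no overt social response. Each type was sampled with 6 bees in colony 6 and 6 in colony 5, and every library came from 1 bee. The queen of each colony had been inseminated by a single drone, so the workers of a colony share their father's whole genome, and each colony is 1 family. All groups carried deformed wing virus (DWV) reads to some extent, which the labels count. Bees carry the name of their type and their title's number. The same 6 numbers recur in the 3 types of a colony, and the labels do not say what a shared number stands for.

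Mushroom bodies are paired centres of the insect brain in which smell, sight and other senses meet, and they are known for their part in learning and memory. Workers of a hive divide the labour: nurses feed the brood, and guards meet intruders with attack. DWV is an RNA virus of bees that is spread by a parasitic mite and is also found in brains. The files name no gene, and the reference gene table held 0 of their 15314 IDs. No function can therefore be given to a member, and the tissue and cell type markers could not be looked up. In such pieces of tissue, fewer cells of a type and less RNA per cell cannot be told apart.

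Counts over genes ranged from 16.2 to 27.5 M (mega) per library. They were 17.4 to 27.5 M in colony 6 guards, 18.2 to 25.8 M in colony 6 nurses and 16.6 to 23.3 M in colony 6 unresponsive bees. The 3 libraries numbered 213 carry a sequencing lane code different from that of all others and include the deepest library of each type in colony 6. The share of counted reads that fell in no gene was 28.1 to 29.3% in colony 6 guards and 28.5 to 29.5% in the 12 other colony 6 bees.

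Most members were expressed at low levels. Mean levels over colony 6 ran from 1.02 to 1402 CPM with a median of 12.4 CPM, against a median of 41.6 CPM over all 10286 genes. CPM is not divided by gene length, so these values describe how many reads stood behind a gene. Members made up 50 of 1334 genes with 1 to 4 CPM, 98 of 2077 with 4 to 20 CPM, 61 of 4404 with 20 to 100 CPM and 22 of 2471 with at least 100 CPM. In colony 5, 226 of the 231 had a mean of at least 1 CPM.

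The size of the difference was mostly close to the limit of the choice. The median over members of the guard mean minus the nurse mean was -0.41 on the log2(CPM + 1) scale, and that of the guard mean minus the unresponsive mean was -0.39. Over all 10286 genes the medians were 0.024 and 0.014. Only 37 members were lower by 0.5 or more against both types, and 3 by 1 or more. The member nearest the limit, GB41549, averaged 4.33 ± 1.33 CPM in guards, 5.47 ± 0.976 CPM in unresponsive bees and 5.93 ± 0.914 CPM in nurses (SD, n = 6 each), with differences of -0.40 and -0.30. GB45468, the gene just outside, averaged 0.988 ± 0.416 CPM in guards, 1.42 ± 0.351 CPM in unresponsive bees and 1.58 ± 0.269 CPM in nurses (SD, n = 6 each), with differences of -0.40 and -0.2997. The member with the lowest mean level had 1.02 CPM, and the gene with the highest level below the minimum had 0.858 CPM. Nurses and unresponsive bees, which were not compared in the choice, lay close to each other over the members. The median of the unresponsive mean minus the nurse mean was -0.022, against 0.0086 over all genes.

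The 6 guards did not share the difference equally. For each bee, every member's level was set against the mean of the nurse and unresponsive means of its colony, and the median was taken over the 231 members. It was -0.65 in Guard 230, -0.64 in Guard 213 and -0.58 in Guard 210. In the others it was -0.23 in Guard 237, -0.23 in Guard 222 and -0.14 in Guard 205. The first 3 guards thus lay well below the other 3, and all 6 lay below each of the 12 other colony 6 bees, whose medians ran from -0.10 in Nurse 205 to 0.21 in Nurse 213. Over all 10286 genes the guards' medians ran from -0.007 to 0.041, so the middle of the whole library was not shifted. The 10th percentile over all genes was -0.38 in Guard 230, -0.39 in Guard 213 and -0.32 in Guard 210. It was -0.21 in Guard 237, -0.25 in Guard 222 and -0.22 in Guard 205. The low end over all genes thus also lay further down in the first 3 guards.

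Counted member by member, 203 of 231 were lower by at least 0.3 in Guard 230, 200 in Guard 213 and 190 in Guard 210. The count was 99 in Guard 237, 97 in Guard 222 and 62 in Guard 205. Of all genes, 13.6% were lower by at least 0.3 in Guard 230, 14.7% in Guard 213 and 10.8% in Guard 210. That share was 5.68% in Guard 237, 7.67% in Guard 222 and 6.10% in Guard 205. Guard 230 had the lowest value among the guards for 71 members, Guard 213 for 63 and Guard 210 for 62. The highest guard was Guard 205 for 80 members, Guard 237 for 66 and Guard 222 for 56. The share of a library's counts that fell on members was 0.778% in Guard 230, 0.828% in Guard 213, 0.745% in Guard 210, 0.994% in Guard 237, 1.06% in Guard 222 and 1.10% in Guard 205. It was 1.12 to 1.40% in the 12 other bees, above every guard.

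**Figure D1:**
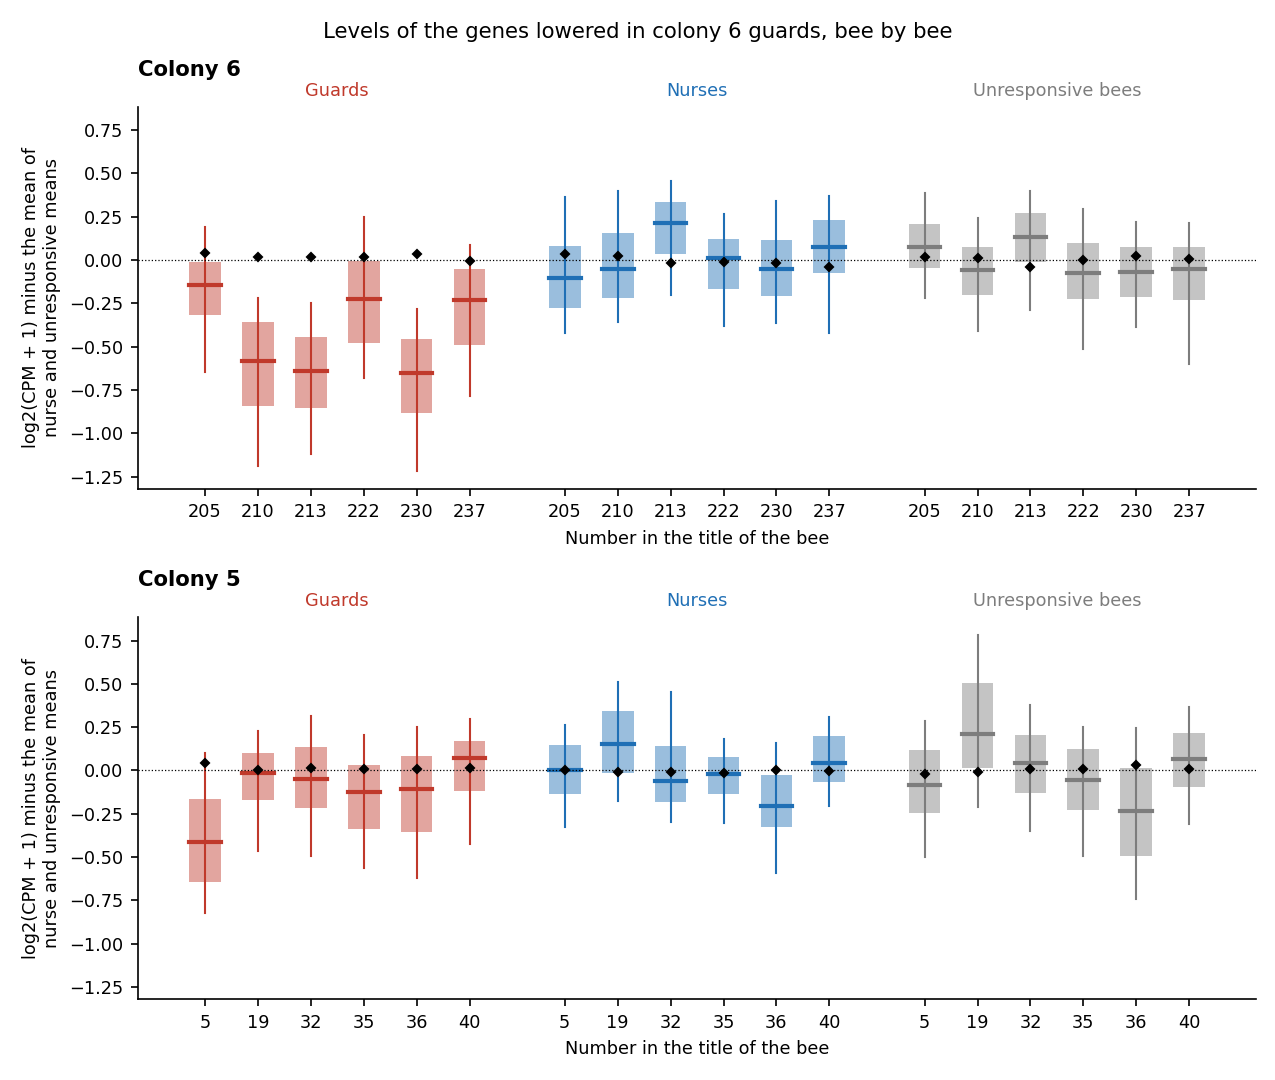
Levels of the 231 members in every bee of colony 6 (top) and colony 5 (bottom), as log2(CPM + 1) minus the mean of the nurse and unresponsive means of the colony; thick lines are medians over members, boxes span the quartiles, thin lines the 10th to 90th percentiles, and black diamonds are medians over all 10286 genes. Guards 210, 213 and 230 have medians of -0.58 to -0.65 in colony 6, and Guard 5, at -0.41, is the lowest bee of colony 5.

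Few members separated the guards from all other bees. All 6 guards lay below all 12 others for 3 members; the same holds for 0.0292% of the 10286 genes, which are these 3. At least 1 guard overlapped the others for every remaining member. Exactly 5 guards lay below all 12 others for 15 members, 4 guards for 57, 3 guards for 75, 2 guards for 43, 1 guard for 22 and none for 16. Guard 230 lay below all 12 others for 169 members, Guard 213 for 161 and Guard 210 for 153, against 66 for Guard 237, 65 for Guard 222 and 40 for Guard 205. The matching shares of all genes for single guards were not counted, and the members were chosen on these same bees. The order of the guards in these counts can therefore not be read as particular to the members.

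The spread among guards was accordingly wide. The median SD of log2(CPM + 1) over members was 0.355 in colony 6 guards, 0.254 in nurses and 0.230 in unresponsive bees. Over all genes these medians were 0.153, 0.133 and 0.126. In colony 6 members thus varied more than genes as a whole in all 3 types, and most in guards. Members have lower counts than other genes, and they were chosen on the values of these bees. In colony 5 the medians over members were 0.296 in guards, 0.221 in nurses and 0.315 in unresponsive bees. Over all genes they were 0.134, 0.106 and 0.143 there, so guards were not the most varied type in colony 5.

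The members with the greatest difference show this pattern. GB49476 had 4.47 CPM in Guard 210, 2.72 CPM in Guard 213, 14.0 CPM in Guard 230, 16.2 CPM in Guard 237, 62.7 CPM in Guard 205 and 96.3 CPM in Guard 222. Its lowest, median and highest values were 13.5, 50.1 and 56.3 CPM in unresponsive bees and 39.5, 61.6 and 80.5 CPM in nurses. Guards 205 and 222 were thus within or above the range of both other types, while the other 4 guards were below all nurses. The means were 32.7 ± 38.1 CPM in guards, 42.8 ± 16.4 CPM in unresponsive bees and 60.7 ± 13.6 CPM in nurses (SD, n = 6 each). On the log2(CPM + 1) scale the guard mean minus the mean of the nearer type was -1.16, and -1.65 to -0.71 when each colony 6 bee was left out in turn.

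GB40566 had 3.52 CPM in Guard 210, 3.16 CPM in Guard 213, 16 CPM in Guard 230, 8.54 CPM in Guard 237, 34.9 CPM in Guard 205 and 42.5 CPM in Guard 222. Lowest, median and highest values were 20.6, 24.9 and 34.7 CPM in unresponsive bees and 20.1, 32.2 and 37.4 CPM in nurses. Again Guards 205 and 222 were among or above the other bees, and the other 4 guards were below all 12. The difference from the nearer type was -1.05, and -1.40 to -0.73 without each bee in turn. In colony 5 the gene averaged 39.8 ± 14.3 CPM in guards, 40.0 ± 12.6 CPM in unresponsive bees and 39.0 ± 15.4 CPM in nurses (SD, n = 6 each), and the 3 ranges overlapped. GB49476 averaged 39.6 ± 17.3 CPM in colony 5 guards, 46.5 ± 29.8 CPM in unresponsive bees and 70.6 ± 24.0 CPM in nurses (SD, n = 6 each).

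**Figure D2:**
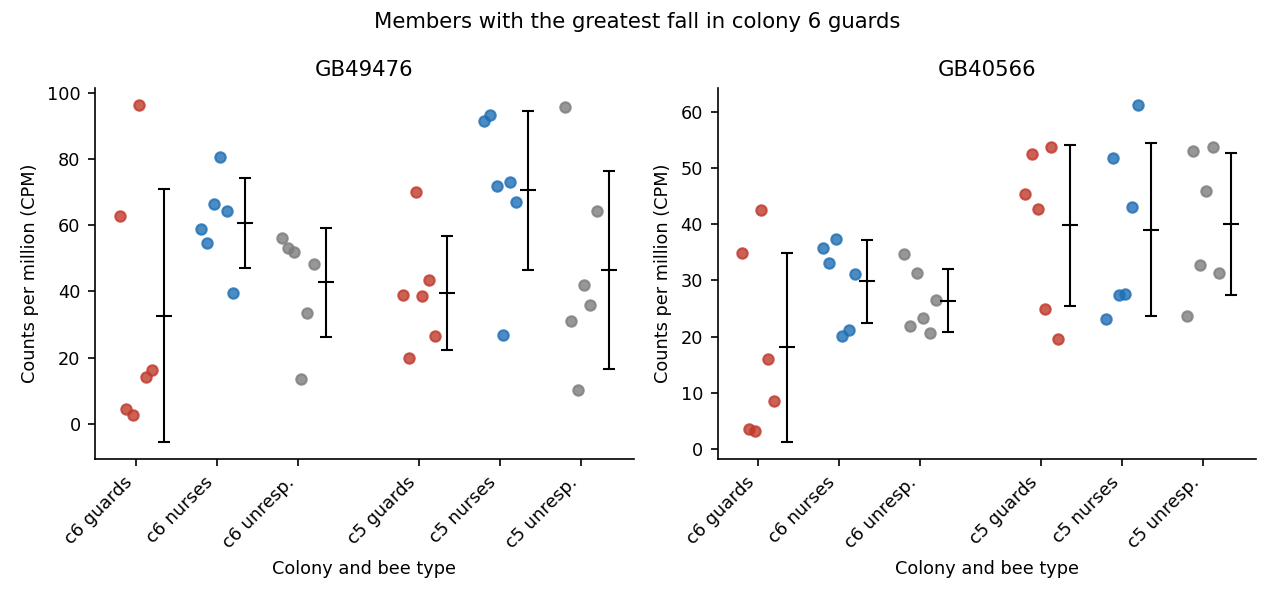
CPM of GB49476 (left) and GB40566 (right) in each bee, by colony (c6, c5) and type; each point is 1 bee and the black bars are mean ± SD (n = 6). In colony 6, 4 guards lie at 16.2 CPM or less for GB49476 and at 16 CPM or less for GB40566, while Guards 205 and 222 lie at 34.9 CPM or more for both genes.

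Some members had separate levels among the colony 6 bees. A gene was counted here when the 18 colony 6 bees, put in order, showed a gap of at least 1 log2 unit with at least 3 bees on each side, a definition set after the values were seen. It held for 7 members and for 51 genes in all, 0.496% of the 10286. Among the 37 members lower by 0.5 or more it held for 6, GB49476 included. Over these 7 genes, 26 of 42 guard values were at the lower level, against 10 of 42 nurse values and 14 of 42 unresponsive values. The genes were chosen for low guard levels in the same 18 bees, so these counts are a description. GB41782 and GB41885 had the same guards at the lower level, as did GB47028 and GB47029, so the values are not independent. No gene had all 6 guards at the lower level. Guard 210 was at the lower level for all 7 and Guard 230 for 6, Guard 222 for 4, and Guards 205, 213 and 237 for 3 each. In colony 5 only 1 of the 7 had such a gap. Without these genes, 224 members remain, and 186 of them lay below the mean of the other types in colony 5 guards, with a median of -0.12.

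Each guard was also set against the nurse and the unresponsive bee of the same title number. The median over members of the guard's level minus the mean of these 2 bees was -0.79 for number 213, -0.56 for 230, -0.47 for 210, -0.23 for 237, -0.19 for 222 and -0.11 for 205. Over all genes it ran from 8.9e-06 for number 210 to 0.053 for number 213. Averaged over the 6 numbers this is the contrast used in the choice, so the values regroup the same bees and are a description. The guard was the lowest bee of its number for 213 members in number 213, 210 in number 230, 201 in number 210, 131 in number 237, 130 in number 222 and 110 in number 205. It was lowest in all 6 numbers for 22 members, in 5 for 74, in 4 for 94, in 3 for 36, in 2 for 4 and in 1 for 1 member. The shares of all genes with the guard lowest were not counted.

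Other values put the colony 6 guards in another order. The 163 genes of the opposite choice had median deviations of 0.76 in Guard 210, 0.64 in Guard 213, 0.64 in Guard 230 and 0.62 in Guard 237, against 0.25 in Guard 205 and 0.21 in Guard 222. Guard 237 was thus among the higher guards for these genes while its members were among the least lowered. The 15 left-out IDs took 0.113 to 1.74% of counts in the guards and 0.00118 to 1.07% in the 12 other colony 6 bees. Guard 222, with 1.74%, was highest. Their part in the members' levels was not tested.

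Members were often neighbours in the numbering of the IDs. Of 306 genes whose ID number directly follows or precedes that of a member, 42 were members, or 13.7%, against 189 of the 9980 remaining genes, or 1.89%. These 42 form 20 runs, the longest of 3 genes. The genes of the opposite choice showed 16 of 200, or 8%, next to one of their own, against 1.46% of the rest. Whether consecutive numbers stand for neighbouring genes on a chromosome was not tested, since no coordinates of this annotation were used here.

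The colony 5 bees did not enter the choice, and most members were lower in their guards too, by less. The guard mean lay below the mean of the nurse and unresponsive means for 192 of 231 members, or 83.1%, against 42.5% of all genes. The median difference was -0.13, and -0.054 without Guard 5, against 0.013 over all genes. Guards were below both other types by any amount for 160 members, against a share of 26.9% over all genes, and above both for 22 members, against 39.2%. By at least 0.3 below both types, 14 members or 6.06% met the same size as in colony 6 (8 without Unresponsive 19, 9 without Guard 36), and 0.768% of all genes did. By at least 0.3 above both types there was 1 member, against 0.233% of all genes. All 6 colony 5 guards below all 12 other bees of the colony was met by 0 members and by 0% of genes.

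A single guard held much of this. The median over members was -0.41 in Guard 5, in which 196 members were lower and 147 by at least 0.3. Of all genes, 42.1% were lower in Guard 5, and 11.1% by at least 0.3. The median over members was -0.12 in Guard 35, -0.11 in Guard 36, -0.05 in Guard 32, -0.01 in Guard 19 and 0.07 in Guard 40. Colony 5 nurses ran from -0.20 in Nurse 36 to 0.15 in Nurse 19, and unresponsive bees from -0.24 in Unresponsive 36 to 0.21 in Unresponsive 19. Apart from Guard 5, the guards thus lay within the range of the other types. Without Guard 5, 154 members or 66.7% were below the mean of the other types, against 43.7% of all genes.

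**Figure D3:**
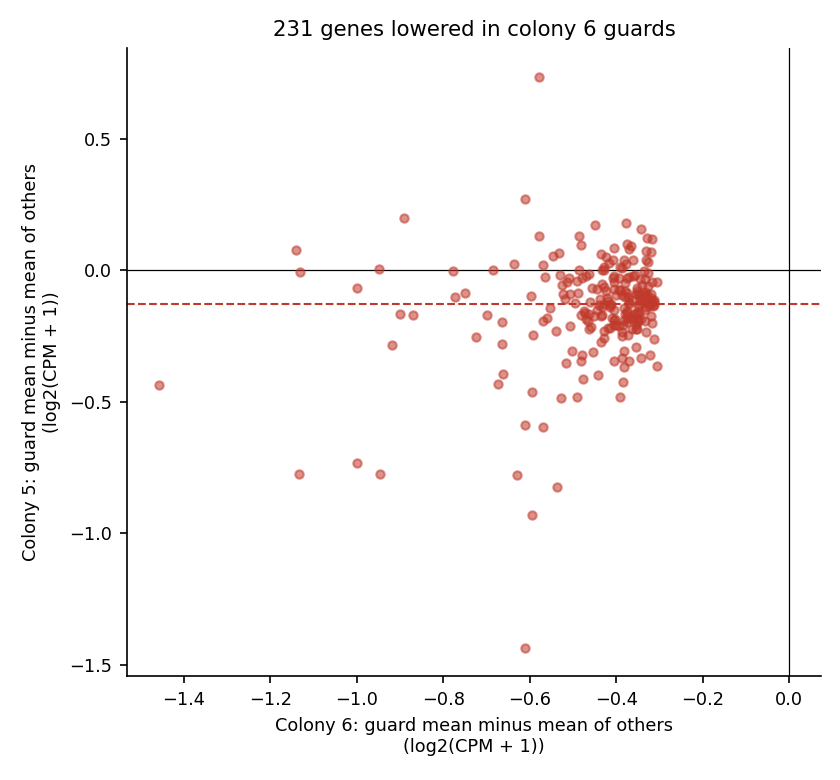
Guard mean minus the mean of the nurse and unresponsive means on the log2(CPM + 1) scale for each of the 231 members, in colony 6 (horizontal, used for the choice) and colony 5 (vertical); the dashed line is the colony 5 median, -0.13. Points below the horizontal line at 0 are the 192 members lower in colony 5 guards.

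Tested over all genes, no difference between colony 5 guards and the other types passed. With edgeR's quasi-likelihood test and Benjamini-Hochberg adjustment over 10958 genes, 228 of them members, 0 genes (0%) had an adjusted p under 0.05 for guards against the mean of the other types. Unadjusted, 483 genes (4.41%) had p under 0.05, and DESeq2 called 1 gene, not a member. Of the members, 15 were lower at an unadjusted p under 0.05, against a background of 2.20%, and 0 were higher, against 2.21%. These 15 became 35 without Unresponsive 36, 9 without Unresponsive 19 and 8 without Guard 36. Of all genes, 241 were lower at that p with every bee, and 340, 202 and 190 without these bees in turn. The fitted change was below 0 for 191 of the 228 members and for 50.0% of all genes.

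Against nurses alone 0 genes passed (0%), 559 (5.10%) had an unadjusted p under 0.05, and DESeq2 called 13, 2 of them members. Without Guard 35 or without Guard 36, edgeR called 1 gene, a member in the second case. At that unadjusted p 15 members were lower, against 2.82%, and 0 were higher, against 2.28%, and 186 of 228 fitted changes were below 0, against 49.8%. Against unresponsive bees 0 genes passed (0%), 551 (5.03%) had an unadjusted p under 0.05, and DESeq2 called 3, none a member. Of the members 9 were lower, against 2.30%, and 1 was higher, against 2.73%, at an unadjusted p under 0.05. These 9 became 40 without Unresponsive 36, 22 without Guard 40 and 5 without Unresponsive 32. Of all genes, 252 were lower at that p with every bee, and 467, 364 and 240 without these bees in turn. The fitted change was below 0 for 182 of 228 members, against 50.7%. These comparisons share the 6 guards.

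GB55375 had the smallest p among the members that were lower. Its lowest, median and highest values were 6.86, 10.3 and 13.9 CPM in colony 5 guards, 12.7, 13.5 and 20.1 CPM in unresponsive bees and 13.5, 22.7 and 48.3 CPM in nurses. Only Guard 35, with 13.9 CPM, reached into the ranges of the other types. The fitted log2 change against the mean of both was -0.94 ± 0.25 (SE), with an adjusted p of 0.971 in edgeR. In colony 6 it averaged 18.9 ± 4.29 CPM in guards, 29.8 ± 11.0 CPM in unresponsive bees and 27.0 ± 6.47 CPM in nurses (SD, n = 6 each). DWV load, the share of virus reads in a library, is split into high and low further below. In colony 5 GB55375 averaged 13.5 ± 4.52 CPM in the 13 high-load bees and 25.4 ± 14.0 CPM in the 5 low-load bees (SD). Most guards there had high load and most nurses low load, so type and load were largely mixed between these types. With type in the model, its fitted log2 change per unit of log10 load was -0.20 ± 0.098 (SE). How much of its guard difference went with load was not tested.

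GB43035 had 21.7, 26.1 and 37.7 CPM as lowest, median and highest values in colony 5 guards, 27.0, 31.8 and 36.3 CPM in unresponsive bees and 31.8, 36.8 and 39.2 CPM in nurses. Guard 36, at 37.7 CPM, lay among the nurses, and the other 5 guards lay below all 6 nurses. Its fitted log2 change was -0.33 ± 0.090 (SE), with an adjusted p of 0.971 in edgeR. Both genes were the members that DESeq2 called against nurses, and edgeR called GB43035 against nurses once Guard 36 was left out.

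In the other direction the smallest p belonged to GB41782 and GB45005, neither of which passed. GB41782, one of the genes with separate levels in colony 6, averaged 4.65 ± 0.854 CPM in colony 5 guards, 3.22 ± 0.892 CPM in unresponsive bees and 4.24 ± 0.828 CPM in nurses (SD, n = 6 each). Its fitted log2 change was 0.32 ± 0.16 (SE), with an adjusted p of 0.971 in edgeR. GB45005 averaged 11.3 ± 2.61 CPM in guards, 9.73 ± 0.864 CPM in unresponsive bees and 9.98 ± 0.884 CPM in nurses (SD, n = 6 each), and its fitted log2 change was 0.19 ± 0.11 (SE).

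Between the colonies, members differed in guards and, the other way, in the other types. The median over members of the colony 6 mean minus the colony 5 mean was -0.20 in guards, 0.11 in nurses and 0.11 in unresponsive bees, against 0.0087, 0.0035 and 0.0051 over all genes. The colony 6 guard mean was below the colony 5 guard mean for 166 members. All colony 6 guards lay below all colony 5 guards for 13 members, against 1.94% of all genes, and above them for 0, against 1.78%. Since guards, nurses and unresponsive bees of colony 6 were all used in the choice, these values are a description. The choice favours genes that are low in guards and high in the other types of that colony. Colony cannot be told apart from anything else that differed between the 2 families.

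The members varied together in colony 5. With the mean of each type taken off, the median Pearson correlation over all 26565 pairs of members across the 18 colony 5 libraries was 0.187, against 0.00596 over pairs of all genes. The correlation was above 0.5 for 21.0% of member pairs and for 5.29% of all pairs. For the 22 pairs with consecutive ID numbers the median was 0.591. No value for consecutive IDs over all genes was computed, so this median has no matching background. Without Guard 5 the medians were 0.144 for members and 0.0046 for all genes. All pairs share the same libraries and their depth, and members have lower counts than other genes.

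DWV load was taken from the labels as DWV reads per 1000000 reads of the library (RPM), and more than 1000 RPM was called high. In colony 6, high load was found in guards only: 8608 RPM in Guard 230, 8526 RPM in Guard 213 and 6673 RPM in Guard 237. The low-load guards had 63.2 RPM in Guard 205, 32.0 RPM in Guard 210 and 3.91 RPM in Guard 222, and the 12 other bees had 2.60 to 41.6 RPM. High load and guard type therefore cannot be told apart between the types of colony 6, and load was compared within its guards.

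The most lowered guards were of both kinds. Median deviations of the members were -0.65 in Guard 230, -0.64 in Guard 213 and -0.23 in Guard 237 at high load, against -0.58 in Guard 210, -0.23 in Guard 222 and -0.14 in Guard 205 at low load. Guard 210, at 32.0 RPM, was nearly as low as the 2 lowest high-load guards, and Guard 237, at 6673 RPM, was about as low as Guard 222, at 3.91 RPM. The ranges of the groups overlapped.

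Over members, the high-load mean lay below the low-load mean for 174 of 231, or 75.3%, against 54.4% of all genes, with a median difference of -0.17 against -0.015. All 3 high-load guards lay below all 3 low-load guards for 8 members or 3.46%, against 6.23% of all genes, and above them for 2, against 4.84%. Both shares are below the background. The 6 guards compared here also entered the choice, so all genes are not an even background for the members.

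**Figure D4:**
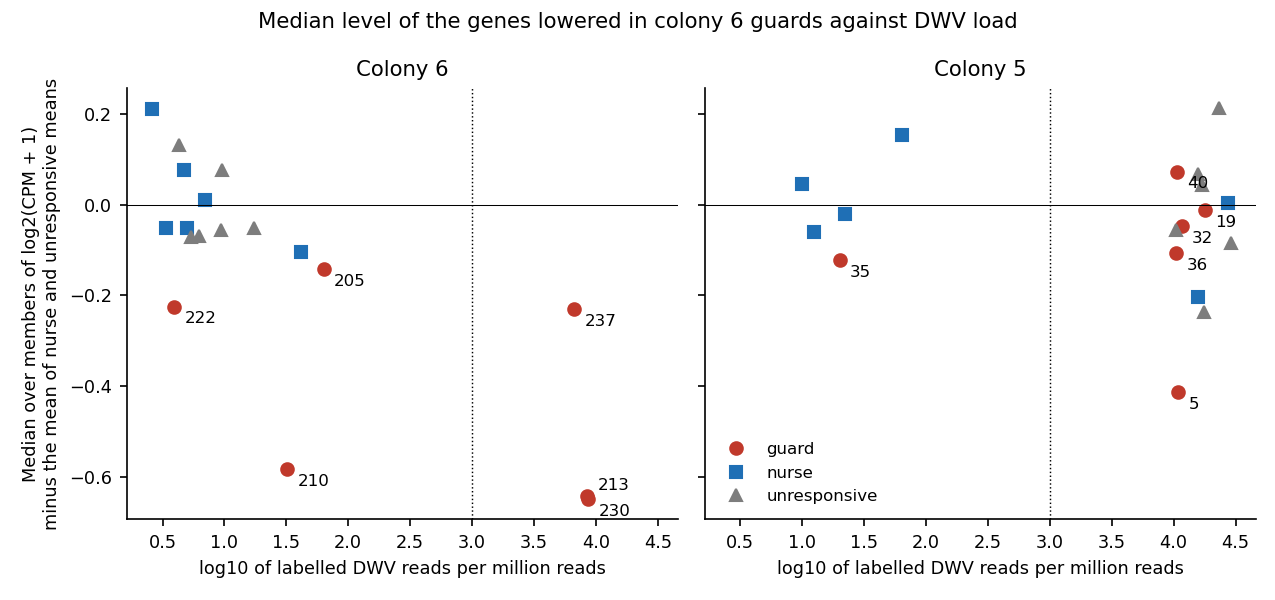
Median over the 231 members of log2(CPM + 1) minus the mean of the nurse and unresponsive means of the colony (vertical) against log10 of DWV reads per 1000000 reads (horizontal), 1 point per bee, with guards numbered; the dotted line marks 1000 RPM. In colony 6 all 3 high-load bees are guards, and low-load Guard 210 lies at -0.58; in colony 5 high-load bees run from -0.41 to 0.21.

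A test of high against low load among the 6 guards of colony 6 called 0 of 10799 genes (0%) with edgeR and Benjamini-Hochberg adjustment, and 630 (5.83%) had an unadjusted p under 0.05. DESeq2 called 38, 1 of them a member. Of 225 members tested, 13 were lower at an unadjusted p under 0.05, against 2.77%, and 2 were higher, against 3.07%. The 6 guards are bees that entered the choice, so these shares of members are a description. The count of 13 rested on single bees: it was 58 without Guard 237, where 806 of all genes were lower at that p, and 43 without Guard 210, where 390 were, against 299 with all 6 guards. It was 6 without Guard 222 or Guard 230, 5 without Guard 205 and 3 without Guard 213. Of all genes, 254, 297, 196 and 148 were lower at that p without these guards in turn. The fitted change was below 0 for 161 of 225 members and for 49.4% of all genes. Its median over members was -0.15, with -0.37 without Guard 237 and -0.09 without Guard 205 as the extremes. Without Guard 210, edgeR called 42 genes, 2 of them members, both lower at high load; it called 2 genes without Guard 230, 1 of them a member, and 1 without Guard 237, not a member.

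The members with the smallest p in this test differed strongly between single bees. GB45147 had 2.18 CPM in Guard 230, 1.85 CPM in Guard 213 and 1.51 CPM in Guard 237 at high load, against 9.0 CPM in Guard 210, 5.28 CPM in Guard 222 and 1.91 CPM in Guard 205 at low load. Guard 205 overlapped the high-load guards. The fitted log2 change was -1.53 ± 0.51 (SE), with an adjusted p of 0.792 in edgeR, and the highest colony 6 values were 49.7 CPM in Nurse 210 and 13.1 CPM in Unresponsive 222, both low-load bees.

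GB51613 had 0.575 CPM in Guard 230, 0.799 CPM in Guard 213 and 1.30 CPM in Guard 237 at high load, against 1.92 CPM in Guard 210, 1.31 CPM in Guard 222 and 4.03 CPM in Guard 205 at low load. The groups were separate by 1.30 against 1.31 CPM. The fitted log2 change was -1.41 ± 0.50 (SE), with an adjusted p of 0.792 in edgeR.

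GB40609 was higher at high load, with 5.23 CPM in Guard 230, 7.33 CPM in Guard 213 and 6.43 CPM in Guard 237, against 4.10 CPM in Guard 210, 1.51 CPM in Guard 222 and 2.44 CPM in Guard 205 at low load. The 2 groups did not overlap, and the fitted log2 change was 1.26 ± 0.36 (SE), with an adjusted p of 0.792 in edgeR. In nurses and unresponsive bees, all of low load, it ran from 1.94 to 20.0 CPM and from 2.69 to 25.3 CPM, which covers the guards of both loads.

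GB47028, one of the genes with separate levels, had 8.68 CPM in Guard 230, 32.4 CPM in Guard 213 and 24.4 CPM in Guard 237 at high load, against 7.25 CPM in Guard 210, 8.30 CPM in Guard 222 and 8.48 CPM in Guard 205 at low load. Guard 230 was only just above the low-load guards. The fitted log2 change was 1.47 ± 0.47 (SE), with an adjusted p of 0.792 in edgeR. It is the member that DESeq2 called, and edgeR called it once Guard 230 was left out. Both levels also occurred in nurses, with 7.91 to 33.9 CPM, and in unresponsive bees, with 6.63 to 34.8 CPM, and in colony 5 it ran from 5.55 to 12.6 CPM in guards, 8.85 to 14.7 CPM in unresponsive bees and 9.21 to 13.2 CPM in nurses.

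In colony 5, high load was found in all 6 unresponsive bees, in 5 of 6 guards and in 2 of 6 nurses. Median deviations of the members ran from -0.41 to 0.21 in the 13 high-load bees and from -0.12 to 0.15 in the 5 low-load bees. The low-load bees thus lay within the range of the high-load ones. Guard 35, the guard with low load, lay at -0.12, between its high-load sisters. In nurses, the high-load mean, over Nurses 5 and 36, was below the low-load mean for 163 members or 70.6%, against 45.7% of all genes, with a median difference of -0.13 against 0.011. These 2 nurses were unlike: the median deviation of the members was -0.20 in Nurse 36 and 0.0042 in Nurse 5. In guards, the high-load mean was below the value of Guard 35 for 113 members or 48.9%, against 49.0% of all genes.

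With behavioural type in the model, the slope on log10 load over the 18 colony 5 bees passed for 1 of 10958 genes (0.00913%) in edgeR with Benjamini-Hochberg adjustment, which was not a member, and 1.93% had an unadjusted p under 0.05. It called 2 genes without Nurse 35 and 0 without Guard 35 or Nurse 5, none of them members. Members with an unadjusted p under 0.05 numbered 2 with a slope below 0, against 0.876% of all genes, and 1 with a slope above 0, against 1.06%, which is close to the background. The count of 2 ranged from 0 without Nurse 36 to 7 without Nurse 5. Over all genes that count was 96 with every bee, 100 without Nurse 36 and 121 without Nurse 5. Slopes were below 0 for 148 of 228 members and for 50.3% of all genes. Without Nurse 36 they were below 0 for 96 of 229 members and above 0 for 133, so the more common direction changed. How many single slopes changed sign was not counted. The slope is the log2 change for each unit of log10 load. All unresponsive bees had high load, from 10469 to 28967 RPM, and so did every guard but Guard 35, at 20.1 RPM. Within types, the contrast of high with low load thus came only from the nurses and Guard 35, fewer than the 18 bees fitted.

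GB55036 had lowest, median and highest values of 3.59, 4.70 and 6.53 CPM in the 13 high-load bees. The low-load bees had 5.51 CPM in Guard 35, 6.01 CPM in Nurse 19, 5.57 CPM in Nurse 32, 6.00 CPM in Nurse 35 and 6.77 CPM in Nurse 40, which overlaps the high-load range. Its slope was -0.13 ± 0.055 (SE), with an adjusted p of 1.00 in edgeR. GB52543 had a slope of -0.11 ± 0.049 (SE), with 45.2 to 87.0 CPM at high load and 69.5 to 83.6 CPM at low load.

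GB45291 had lowest, median and highest values of 1.48, 2.03 and 2.66 CPM in the 13 high-load bees of colony 5. The low-load bees had 1.50 CPM in Guard 35, 1.92 CPM in Nurse 19, 1.45 CPM in Nurse 32, 1.28 CPM in Nurse 35 and 1.15 CPM in Nurse 40, which overlaps the high-load range. Its slope was 0.21 ± 0.069 (SE), with an adjusted p of 1.00 in edgeR. GB41919 had a slope of 0.16 ± 0.087 (SE), with 3.84 to 9.40 CPM at high load and 3.37 to 7.29 CPM at low load.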

How the data were processed

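RNA sequencing of 36 bee brain samples was analysed from the deposited raw read counts per gene ID, 1 file per bee, which the authors did not normalize. Per the submitters' processing notes, HTSeq (version not given), Bowtie2 2.1.0 with TopHat2 2.0.10, SAMtools 0.1.19 and CASAVA 1.8.2 were used; counting options and the use of strand are not given there. Reads of near-identical or overlapping genes may be split between IDs. Library sizes leave out the 5 summary rows; reads in no gene were 28.9% on average. The labels give total and DWV-mapped reads.

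The members, the gene lists and the tests were chosen with earlier results of these data known. Gene lists and markers could not be matched to IDs and were not tested. Named genes are the 2 members with the greatest difference in colony 6 among those with a mean of at least 4 CPM there, the 2 members with the smallest p in each direction for colony 5 guards and for load in each colony, whether or not they passed, and the gene on each side of the limit.

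Tests used edgeR 4.0.16 (TMM, filterByExpr, robust quasi-likelihood fit, Benjamini-Hochberg, threshold 0.05) in R 4.3.3 on the 18 colony 5 libraries or the 6 colony 6 guards. DESeq2 1.42.0, other scalings, no filter, other sample sets and single bees left out were alternatives. Each library is 1 bee, so p-values measure the spread between bees of 1 family. The median SE over members was 0.16 for colony 5 guards against the mean of the other types and 0.30 for load among colony 6 guards, against 0.072 and 0.13 over all genes. Tested on simulated counts, the first comparison recovered 70 of 100 genes changed 1.5-fold and 91 of 100 changed 2-fold over 10904 genes. The second recovered 40 and 69 over 10701 genes. The changed genes were drawn at random from all genes tested, so these counts do not describe recovery among the members.

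Title numbers were not used as a pairing in the tests. Figures used matplotlib 3.10.9.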

Additional observations from a re-analysis of the deposited data

Results flagged for a closer look

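In groups of 6 bees, a value was taken up here when its gap to the nearest bee, as a share of the group's range, exceeded the 95% critical value of Dixon's test. Among 108 groups tested, 8 had such a value, and chance alone gives about 1 in 20 groups. Guard 5 stood apart from the other colony 5 guards in the share of counts on members, 0.832%, which is lower than in any other colony 5 bee. GB51613 was high in Guard 19 with 5.25 CPM, in Nurse 19 with 4.34 CPM and in Nurse 210 with 9.06 CPM. GB45147 was high in Nurse 210 with 49.7 CPM and in Unresponsive 222 with 13.1 CPM. GB40609 was high in Nurse 36 with 31.8 CPM, and GB45005 in Unresponsive 213 with 15.1 CPM.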

How the results depend on the processing

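The 15 values of named genes kept their direction under every alternative run. For the member slopes on load in colony 5 the more common direction changed. Below 0 were 148 of 228, against 80 of 228 with the replicate block and 96 of 229 without Nurse 36. The choice in colony 6 found 37 genes at a difference of at least 0.5, 134 without the libraries numbered 213 (106 of them members), and 180 to 351 without each colony 6 bee in turn, highest without Guard 205; 79 members were found in all of these 18. Members below both types by at least 0.3 in colony 5 guards numbered 8 to 20 without each bee, members below the mean of the other types 154 to 198, and their median ran from -0.17 to -0.054; the last 2 sets of alternatives, and the definition of separate levels, were chosen after seeing the data. DESeq2 called 1 gene for colony 5 guards against the mean of the other types, 13 against nurses, 3 against unresponsive bees, 3 for the load slope and 38 for load among colony 6 guards, where 20 members were lower at an unadjusted p under 0.05 (30 by edgeR with all 18 colony 6 libraries, against 13). With title number as a replicate block, edgeR called 1 gene against nurses and 0 for the load slope, and members lower at an unadjusted p under 0.05 numbered 35 against the mean of the other types, 30 against nurses and 24 against unresponsive bees, against 15, 15 and 9 without it. Over all genes these numbers were 330, 382 and 350 with the block, against 241, 309 and 252. With DWV load as a covariate 7 members were lower against nurses and 14 against unresponsive bees, and 178 and 273 of all genes were. The numbers were not taken as a pairing because not every same-numbered pair had deviations correlated above 0.1: 14 of 18 pairs did in colony 6 (-0.18 to 0.44, own number highest in 10) and 9 of 18 in colony 5 (-0.15 to 0.32, own number highest in 6). With all 36 libraries it called 1 against nurses, and without type in the model 4 for the load slope, with 12 members below 0 at an unadjusted p under 0.05, against 2. Without each bee in turn it called 0 to 1 gene against nurses (1 without Guard 35 or 36), 0 to 2 for the load slope (2 without Nurse 35, 0 without Guard 35 or Nurse 5) and 0 to 42 for load among colony 6 guards (42 without Guard 210, 2 without Guard 230, 1 without Guard 237). At the 0.5 difference, 8.33% of genes next to a member by number were members. The cause of these differences was not tested. Depth limits the low members most: 50 of 231 had 1 to 4 CPM.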
